A study of Mus musculus with 2 samples.

Results

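The granule-protein progenitors of the calvarial defect are immature myeloid cells that carry the messages of neutrophil granule proteases. They were selected on measured values. A cell was a member when Mpo, Elane, Prtn3 and Ctsg together made up at least 0.3% of its unique molecular identifiers (UMIs, which count captured messages) and Camp, Ngp and Ltf together made up less than 0.5%. Members also held at most 3 UMIs of the B cell genes Cd79a and Cd79b, and less than 1% of their UMIs came from the collagen genes Col1a1 and Col1a2. Within the study's limits on depth and mitochondrial share, the rule found 297 of 9036 cells in the GA library and 114 of 8093 cells in the control library, 411 of 17129 cells in all.

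Both libraries came from male C57BL/6 mice of 2 months, named C57BL/6J in the study's text. The mice had a circular defect of 1.8 mm in the frontal bone. Bone around the defect, cut at an edge length of about 3 mm, was digested with collagenase 7 days after injury, and red blood cells were lysed. GA mice received gambogic amide, a small molecule, at 1.2 mg/kg by daily intraperitoneal injection of 100 μL in 10% DMSO. Control mice received 10% DMSO alone, and injections in both groups began 24 h before injury and went on for 1 week. The dose is that of the sample labels, and the study's methods give another. Each library pooled the cells of 5 mice, so each condition has 1 library, no difference between GA and control was tested, and the intervals given cover counting error only. The comparison of GA with control asked which cells and genes differed at the defect when mice received GA during repair.

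Neutrophils and monocytes arise in the marrow from shared granulocyte-monocyte progenitors. At the promyelocyte stage the neutrophil line makes the azurophil granules, which hold myeloperoxidase (Mpo) and the serine proteases neutrophil elastase (Elane), proteinase 3 (Prtn3) and cathepsin G (Ctsg), and at the next stage it makes the specific granules with Camp, Ngp and Ltf. The transcription factors C/EBPα and PU.1 act in both lines, C/EBPε and Gfi1 mark the neutrophil branch, and Irf8 and Klf4 mark the monocyte branch.

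The 4 genes that chose the cells varied together from cell to cell. Across the 297 GA members the rank correlation of Elane with Prtn3 was 0.92, and across the 114 control members it was 0.94. For Mpo with Elane the values were 0.77 and 0.79. These are descriptions across cells of 1 library, which share depth and the rule itself. Elane lies on chromosome 10 from 79886247 to 79888215 on the plus strand, and Prtn3 lies just before it from 79874476 to 79883174, with 3072 bases between them (GENCODE vM21, build mm10). Mpo lies on chromosome 11 from 87793581 to 87804413 (plus strand), and Ctsg on chromosome 14 from 56099881 to 56102574 (minus strand). As the sequences behind the 4 genes of the rule, the 250 bases before each RefSeq start site (build GRCm38.p6) are shown, 5′ to 3′ on the gene's own strand. These starts can differ from the GENCODE gene starts. By the GENCODE spans given above, the Prtn3 window lies wholly within the gene. The windows of Mpo and Elane lie partly within their genes, and that of Ctsg lies directly before its gene.
Elane, chr10:79886062-79886311, plus strand: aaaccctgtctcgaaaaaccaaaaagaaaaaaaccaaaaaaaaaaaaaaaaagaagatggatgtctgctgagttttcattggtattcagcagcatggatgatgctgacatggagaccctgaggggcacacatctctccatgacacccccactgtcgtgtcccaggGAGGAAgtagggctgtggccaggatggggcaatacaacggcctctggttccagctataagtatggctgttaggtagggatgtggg
Prtn3, chr10:79879417-79879666, plus strand: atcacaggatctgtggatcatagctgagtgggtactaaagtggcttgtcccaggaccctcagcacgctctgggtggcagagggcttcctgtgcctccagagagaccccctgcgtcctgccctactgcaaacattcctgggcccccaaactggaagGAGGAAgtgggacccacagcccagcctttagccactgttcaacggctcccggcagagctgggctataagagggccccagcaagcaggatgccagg
Mpo, chr11:87793534-87793783, plus strand: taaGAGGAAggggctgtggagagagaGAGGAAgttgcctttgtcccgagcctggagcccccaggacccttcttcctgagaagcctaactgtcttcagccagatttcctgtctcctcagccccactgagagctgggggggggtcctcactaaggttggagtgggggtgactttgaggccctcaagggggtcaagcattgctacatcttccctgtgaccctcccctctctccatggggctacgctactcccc
Ctsg, chr14:56102575-56102824, minus strand: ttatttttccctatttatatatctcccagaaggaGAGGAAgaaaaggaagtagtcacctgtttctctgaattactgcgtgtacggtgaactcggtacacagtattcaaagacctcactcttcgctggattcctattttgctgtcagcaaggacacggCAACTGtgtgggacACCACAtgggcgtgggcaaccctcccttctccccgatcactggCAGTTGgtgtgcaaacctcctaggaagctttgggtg
Capitals mark matches on either strand to 4 motifs, GAGGAA of the PU.1 type, TTGCNNAA of the C/EBP type, TGTGGT of the RUNX type and CAACTG of the MYB type. GAGGAA occurred in all 4 windows, 2 times for Mpo, against 23.3% of 32851 promoters of the same length. CAACTG occurred 2 times and TGTGGT 1 time before Ctsg alone, against 11.1% and 14.0% of promoters, and TTGCNNAA, found in 9.56% of promoters, was in none of the 4. The same window of Ms4a3, which the rule did not use and whose rank correlation with Mpo was 0.81 in both libraries, held 0 matches to the 4 motifs. A match is a description of letters and not evidence of binding.

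Levels are given as CPM, the UMIs of a gene summed over a class of cells and scaled to 1 common total for every class and library. On this scale the rule's genes stood at similar levels in the 2 libraries, apart from Elane. Elane was at 5196 CPM in GA and 7277 CPM in control, a log2 ratio of GA over control of -0.49. The log2 ratio was 0.14 for Prtn3 (7408 and 6722 CPM), 0.01 for Mpo (3898 and 3861 CPM) and 0.02 for Ctsg (3964 and 3914 CPM). Elane was lower in GA in each of the 3 ranges described next, with log2 ratios of -0.37, -0.17 and -0.25 in summed CPM, and Prtn3 was higher in each, with 0.17, 0.33 and 0.56. In the third, the early or basophil range, the median of Elane over cells went the other way, at 1611 CPM in GA and 106 CPM in control, where the 90th percentile was 12723 CPM. Since the rule used the sum of these 4 genes, nothing is drawn from their levels. Ms4a3, a membrane protein of granulocyte-monocyte progenitors that the rule did not use, was at 874 and 923 CPM in the members and at 47.4 and 13.6 CPM in all other cells within the limits. Other genes were ranked by their fold of members over other cells, at 100 CPM or more in the members of both libraries. Those with the largest fold included Cst7, Mcpt8, Prss57, Prss34, Nkg7, Plac8, Ramp1, Gstm1 and Sdf2l1. Mcpt8 and Prss34 are basophil proteases, 13.8-fold and 13.3-fold higher in GA members and 99.9-fold and 72.8-fold higher in control members. Nearly all of their UMIs in the members lay in few cells, as given below. Cst7 (cystatin F, an inhibitor of granule cathepsins) was 16.4-fold higher in GA members and 29.8-fold higher in control members. Prss57, a further azurophil serine protease, was 13.6-fold and 57.2-fold higher.

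The members were checked against marker genes, and they were not 1 cell type. Each cell was put in the range whose genes held most of its UMIs: neutrophil genes (Fcnb, Cebpe, Gfi1, Ltf, Camp, Ngp, Lcn2, Orm1), monocyte genes (Irf8, Csf1r, F13a1, Ccr2, Klf4, Ly86, Fn1), or early progenitor and basophil genes (Kit, Cd34, Flt3, Sox4, Adgrl4, Mecom, Hlf, Ifitm1, Mcpt8, Prss34, Cpa3, Cma1, Tpsb2, Fcer1a, Ms4a2, Gata2). The levels of these genes in the ranges are descriptions, since they set the ranges, while S100a8, Angpt1 and the granule proteases did not. The ranges were set up after the data had been seen, and they are stretches of a score and not types. In GA 102 cells fell in the neutrophil range, 127 in the monocyte range and 64 in the early or basophil range, with 4 ties. In control the numbers were 44, 48 and 20, with 2 ties. Of these, 10, 5 and 14 GA cells and 3, 4 and 3 control cells lay within 1.5-fold of a boundary. The name promyelocyte therefore describes the neutrophil range at most, and the population is called here by its granule-protein genes.

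**Figure D1:**
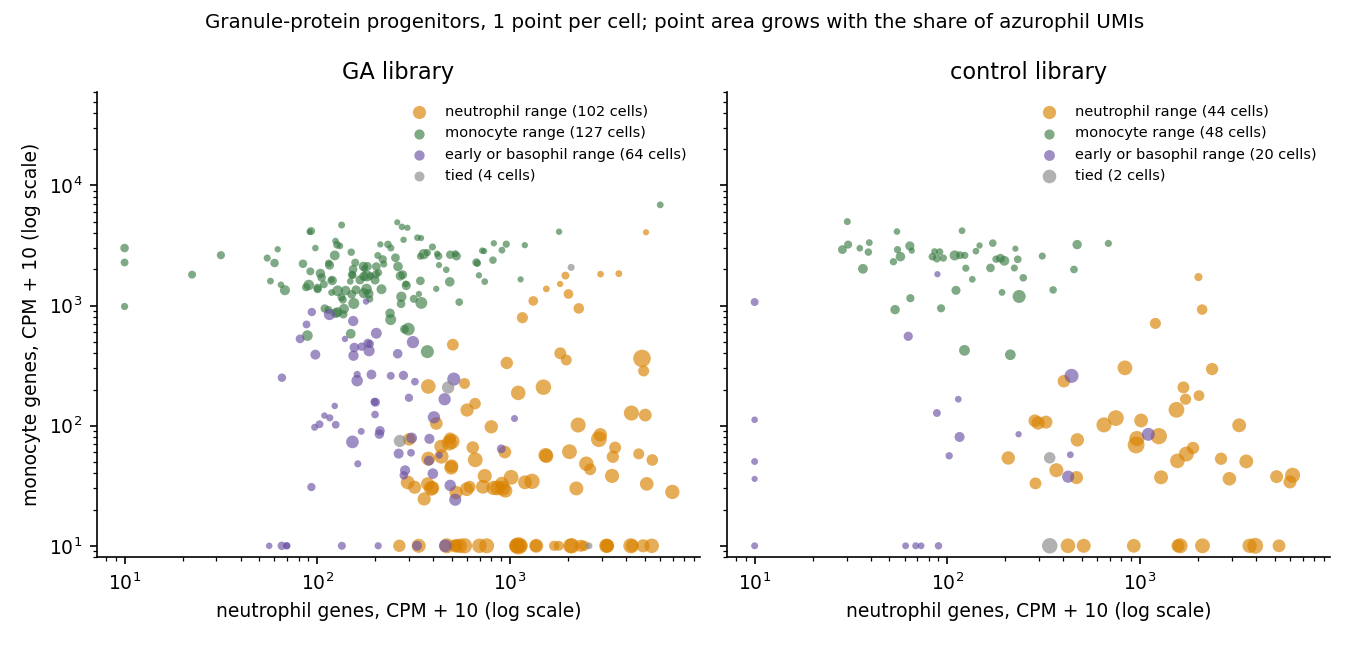
Each point is 1 member cell of the GA library (left) or the control library (right), placed by its summed neutrophil genes (horizontal) and monocyte genes (vertical), both as CPM + 10 on log scales, and coloured by range. Larger points hold more azurophil UMIs, and the largest lie in the neutrophil range, where the median share was 4.14% in GA and 4.12% in control.

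The median share of UMIs from the 4 azurophil genes, the value the rule used, was in the neutrophil range 4.14% in GA and 4.12% in control, against 0.980% and 0.792% in the monocyte range and 1.26% and 0.590% in the early or basophil range. Cebpe, the factor that drives specific granule genes, was at 256 and 277 CPM in the neutrophil range and at 18.2 and 16.7 CPM in the monocyte range. S100a8, a calcium-binding alarmin of neutrophils, reached 16208 and 17466 CPM in the neutrophil range. Single cells in that range spanned a wide course, since S100a8 was at 1367 CPM at the 10th and 40501 CPM at the 90th percentile of GA cells, and at 1252 and 35480 CPM in control. Camp, which encodes cathelicidin and was limited by the rule, was at 414 and 454 CPM, against 39658 and 51565 CPM in the dividing cells past the limit. Irf8 had a median of 0 over the cells of the neutrophil range in both libraries.

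The monocyte range carried granule proteases beside genes of the monocyte line. Irf8, which directs monocyte and dendritic fate, had a median over cells of 332 CPM in GA and 532 CPM in control, and a UMI in 100% and 97.9% of the cells. F13a1, the coagulation factor XIII A chain of classical monocytes, had medians of 725 and 963 CPM. Ccr2, the chemokine receptor that lets monocytes leave the marrow, was at 287 and 295 CPM, against 18.2 and 7.40 CPM in the neutrophil range. Csf1r, the receptor for macrophage colony-stimulating factor, was at 75.2 and 113 CPM in the monocyte range. It was at 340 and 524 CPM in the Ly6c2 monocytes described later. Cebpe had a median of 0 over the cells of the monocyte range in both libraries, and Fcnb a median of 16.6 and 26.4 CPM. Elane and Irf8 ran against each other over all members, with rank correlations of -0.55 in GA and -0.48 in control, and so did Ctsg and Irf8 with -0.65 and -0.68.

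The early or basophil range held genes of early progenitors and of basophils, in a different mix in each library. Kit, the stem cell factor receptor, was at 110 and 88.5 CPM, and Cd34 at 141 and 114 CPM, against 30.8 and 56.3 CPM of Cd34 in the monocyte range. Angpt1, a ligand of the receptor Tek, was at 116 and 272 CPM, and Sox4, a transcription factor of early progenitors, at 196 and 449 CPM. Some members held the basophil proteases Mcpt8 and Prss34: 11 GA cells and 10 control cells had over 20 UMIs of the pair. All of these lay in the early or basophil range, where they were 11 of 64 cells in GA and 10 of 20 cells in control, so that ratios of GA over control within this range compare different mixes of cells. Those 11 cells held 11445 of the 11674 UMIs of Mcpt8 and Prss34 in all GA members, and the 10 control cells held 6837 of 6875. The basophil genes therefore made up a larger part of the smaller control population, at 1888 CPM for the list against 886 CPM in GA, with Cma1 and Tpsb2, which mark connective tissue mast cells, at 0 UMIs in both. Predicted doublets were most frequent here, with 11 of the 15 GA members and 8 of the 13 control members that had a high doublet score.

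**Figure D2:**
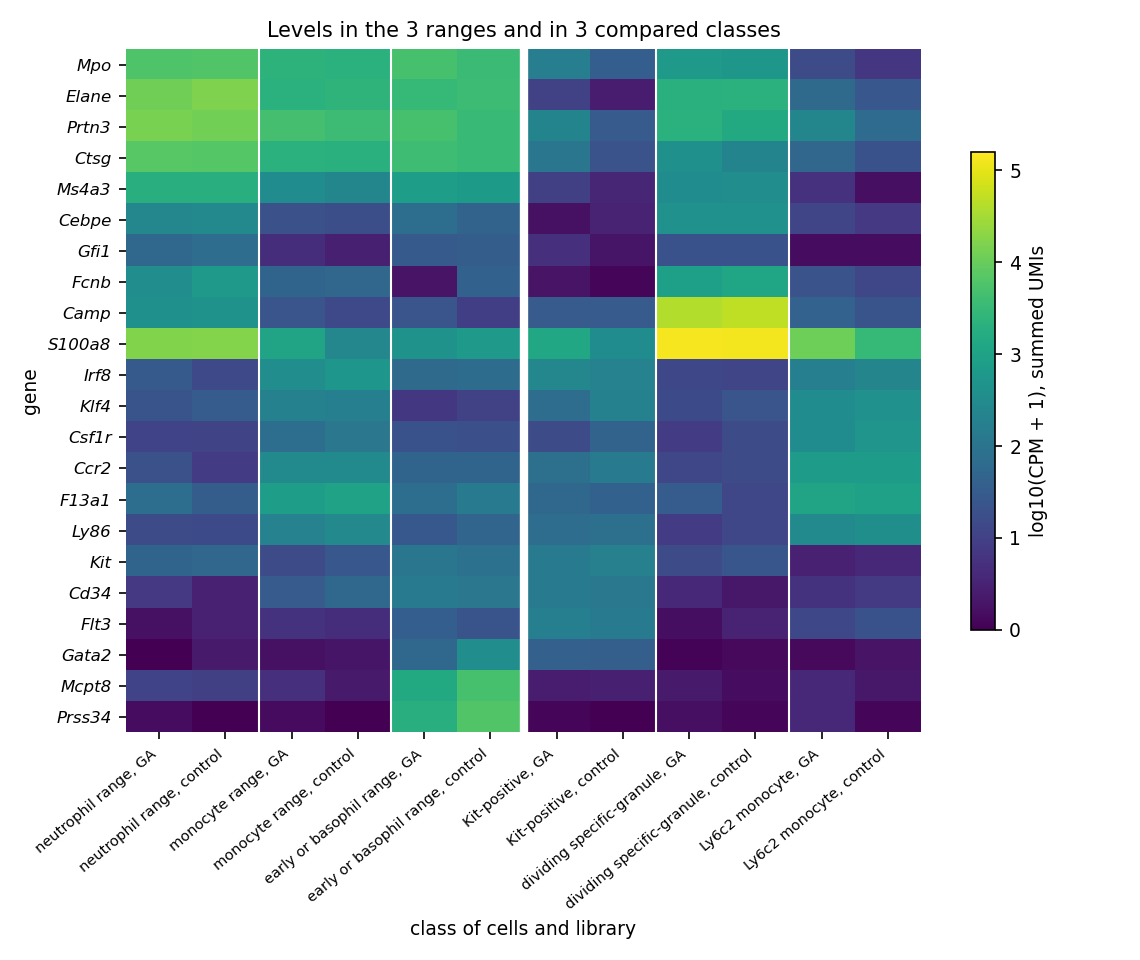
Rows are genes and columns are classes of cells in each library, and colour is log10(CPM + 1) of summed UMIs. The 6 columns left of the broad white line are the 3 ranges of the members, and the 6 to its right are the compared classes. Mcpt8 and Prss34 stand out in the early or basophil range, Camp and S100a8 in the dividing specific-granule cells.

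Granule-protein progenitors formed a larger share of the cells in GA. They were 3.29% of the GA cells (exact 95% interval 2.93 to 3.68%) and 1.41% of the control cells (1.16 to 1.69%), a ratio of 2.33 with an interval of 1.88 to 2.89. Without the cells of highest doublet score the ratio was 2.50. The ratio was 2.08 (1.46 to 2.95) for the neutrophil range, 2.37 (1.70 to 3.30) for the monocyte range and 2.87 (1.74 to 4.73) for the early or basophil range, and these intervals overlap. Kit-positive cells, which held at least 2 UMIs of Kit and fell below the granule thresholds, had a ratio of 0.752 (0.595 to 0.952). Cells with specific granule genes that were dividing had a ratio of 1.86 (1.59 to 2.17), and Ly6c2 monocytes, with at least 0.1% of UMIs from Ly6c2, Ccr2 and Csf1r, had 1.17 (1.08 to 1.27). Per dividing specific-granule cell there were 0.640 members in GA and 0.509 in control. Per Kit-positive cell there were 2.36 and 0.760, and this class was mixed, with Irf8 at 253 and 198 CPM and a summed level of erythroid genes of 1024 and 1649 CPM. Shares of 1 library add up to a whole, so a change in another class moves them too, and the spread between mice is unknown.

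**Figure D3:**
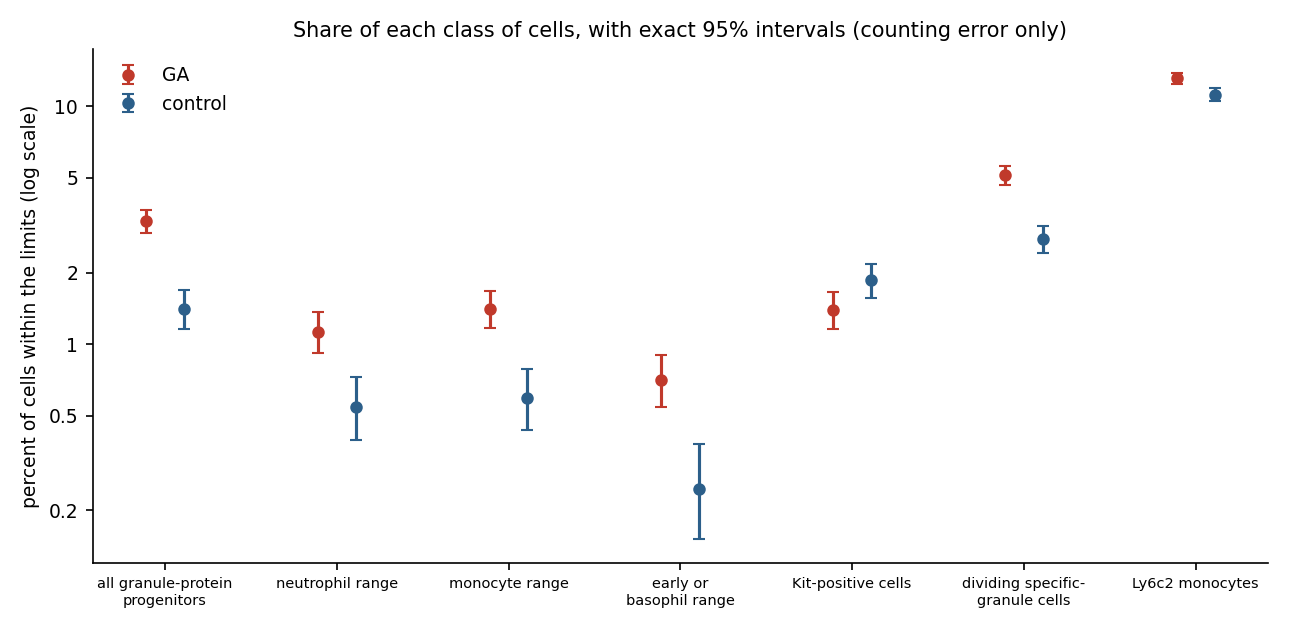
Points are the percent of all cells within the limits, on a log scale, and bars are exact 95% intervals for counting error. All granule-protein progenitors stand at 3.29% in GA and 1.41% in control, and each of the 3 ranges is higher in GA, while the Kit-positive cells stand at 1.39% and 1.85%.

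The members were deep cells. The median member held 50881 UMIs in GA and 37309 in control, while the median of all cells within the limits was 11267 in GA and 17499 in control. The ratio of these medians, GA over control, was 1.36 in the members and 0.644 in all cells. It was 1.45 in the Kit-positive cells, 1.16 in the dividing specific-granule cells and 1.14 in the Ly6c2 monocytes. Among the members 6 GA cells and 0 control cells had under 2000 UMIs. The members' summed UMIs were 15202210 in GA and 4276521 in control. The libraries shared 23 cell barcodes, 1 of which was a GA member, and no barcode was a member in both. Members just inside the azurophil threshold (0.3 to 0.35%) numbered 10 and 4, and 15 and 3 cells lay just outside it (0.25 to 0.3%). At the Camp, Ngp and Ltf threshold, 6 and 3 members were at 0.4 to 0.5%, and 5 and 2 cells at 0.5 to 0.6%.

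Transcripts of dividing cells were frequent in the members, at a share set by the depth of counting. With each cell thinned to 5000 UMIs, a cell was counted as dividing when it held at least 3 UMIs of 8 mitotic genes (Mki67, Top2a, Cdk1, Ube2c, Birc5, Ccnb2, Nusap1, Tpx2). By this count 233 of 290 GA members were dividing (80.3%, interval 75.3 to 84.8%) and 87 of 114 control members (76.3%, 67.4 to 83.8%), and 7 GA members were too shallow to be thinned. Without thinning the shares were 94.9% and 96.5%, and at 2000 UMIs per cell 46.4% and 51.8%. The monocyte range stood highest, at 88.8% in GA and 91.7% in control, the neutrophil range stood at 73.7% and 72.7%, and the early or basophil range at 73.4% (60.9 to 83.7%) and 55.0% (31.5 to 76.9%, 20 cells). The intervals of the 2 libraries overlapped in each range. Of the Kit-positive cells 48.4% and 24.3% were dividing, of the Ly6c2 monocytes 23.6% and 14.1%, and of the dividing specific-granule cells, which were chosen for Mki67 and Top2a, 94.3% and 91.5%. Ighd-expressing B cells stood at 39.0% and 42.6% by the same count, with 32 of 114 and 32 of 100 cells left out as too shallow, and at 32 of 114 and 30 of 100 cells without thinning or 25.4% and 26.0% at 2000 UMIs per cell. Of the 42 S phase genes, which copy DNA, 23 were higher and 19 lower in GA, with a median log2 ratio of 0.05. For the 51 genes of G2 and M phase the median was -0.10, with 15 above and 36 below 0, beside 47.9% above 0 over the 12050 genes with at least 20 UMIs in the members. The largest of them was the mitotic kinase Nek2 at 0.65 and the smallest the kinesin Kif23 at -0.56. Of Ighd-expressing B cells, which should lack azurophil proteins, 11.0% in GA and 2.94% in control held such a UMI at 5000 UMIs per cell. Free message and doublets were not told apart there, and in control this class also held mesenchymal genes at 5497 CPM, against 287 CPM in GA.

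Within the members most genes differed little between GA and control. Of 7778 genes with at least 200 UMIs, the median log2 ratio was 0.01 and the 10th and 90th percentiles were -0.34 and 0.30. Genes higher in GA by a fold of 2 or more numbered 15 (0.193% of 7778), and genes lower by as much numbered 55 (0.707%). Over the 12050 genes with at least 20 UMIs, on which the lists below were counted, 2.33% were higher and 3.86% lower by that fold. The 10 highest and 10 lowest ratios are described next.

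Retnlg, a resistin-like protein of mature neutrophils, had the highest ratio, with 1171 UMIs in GA and 34 in control, or 77.0 and 7.95 CPM (log2 ratio 3.28, interval 2.79 to 3.81). It was higher in the neutrophil, monocyte and early or basophil ranges, by 3.96, 2.80 and 2.84. In GA 214 of the 297 members held a Retnlg UMI, but 5 cells held 597 of the 1171. The ratio went the same way outside the members, where all other cells had 3467 CPM in GA and 929 CPM in control. With cells thinned to 5000 UMIs, Retnlg was found in 17.6% of GA members and 17.1% of GA Ighd-expressing B cells, and in 2.63% and 4.41% of these cells in control. The part of free message in this ratio was not tested.

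Ltf (lactoferrin, a specific granule protein that the rule limited) had a log2 ratio of 2.64, with 311 and 14 UMIs, and Mmp9 (gelatinase B) of 1.83, with 189 and 15 UMIs. At 5000 UMIs per cell Ltf was found in 7.24% of GA and 2.63% of control members, against 9.76% and 1.47% of Ighd-expressing B cells. For Mmp9 these shares were 4.48% and 0.877% of members, against 6.10% and 7.35% of the B cells. The part of free message in these ratios was not tested. Lcn2, the iron-sequestering lipocalin of specific granules, was at 136 and 50.3 CPM (log2 ratio 1.44, interval 1.24 to 1.65), and at 5000 UMIs per cell it was found in 38.6% of GA and 21.9% of control members, against 9.76% and 0% (0 of 68, upper limit 5.28%) of Ighd-expressing B cells. Vcan (versican, a matrix proteoglycan made by monocytes) had a log2 ratio of 2.85 from 512 and 20 UMIs, with 3.41 in the monocyte range and 0.39 in the neutrophil range, and 1.83 without the 5% of cells with most of its UMIs. The difference between these 2 ranges was not tested. Saa3, an acute-phase protein, had 1.66 from 46 and 5 cells. Cd27, a receptor of the tumor necrosis factor family, had 1.62 (0.99 to 2.32), was held by 94 and 16 cells, and stood at 1.51, 0.20 and 1.69 in the neutrophil, monocyte and early or basophil ranges. At 5000 UMIs per cell it was found in 5.17% of GA members (2.92 to 8.39%) and 4.39% of control members (1.44 to 9.94%). Chchd10, a mitochondrial intermembrane protein, had 1.22 (0.96 to 1.48) and was higher in all 3 ranges. Exoc3l2 had 1.68, which turned to -0.71 once the 5% of cells with most of its UMIs were left out.

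The 10 lowest ratios came from few control cells. Prg2, the eosinophil granule major basic protein, had a log2 ratio of -9.16, and all 1451 control UMIs lay in 2 cells, and it was 1.24 without the highest doublet scores. Cxcl12, the stromal chemokine that retains progenitors in the marrow, had -7.25, and all 427 control UMIs lay in 2 cells. The hemoglobin genes Hbb-bt, Hba-a1, Hbb-bs and Hba-a2 had ratios from -5.94 to -4.51, and 1192 of the 1211 control UMIs of Hbb-bs lay in 5 cells. Hbb-bt turned to 0.61 without the highest doublet scores, and Hba-a2 to 1.63 with cells weighted equally. The class II genes H2-Eb1, H2-Aa, Cd74 and H2-Ab1 had ratios from -5.90 to -2.59, and 527 of the 555 control UMIs of Cd74 lay in 5 cells. Eosinophil genes summed to 13.4 CPM in GA and 354 CPM in control, of which Prg2 was 339, and erythroid genes summed to 25.7 and 615 CPM. Macrophage genes summed to 60.8 CPM in GA and 273 CPM in control, with Apoe the most abundant at 40.2 and 165 CPM. With the highest doublet scores removed, 24 of 7635 genes in place of 55 of 7778 were lower by a fold of 2.

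**Figure D4:**
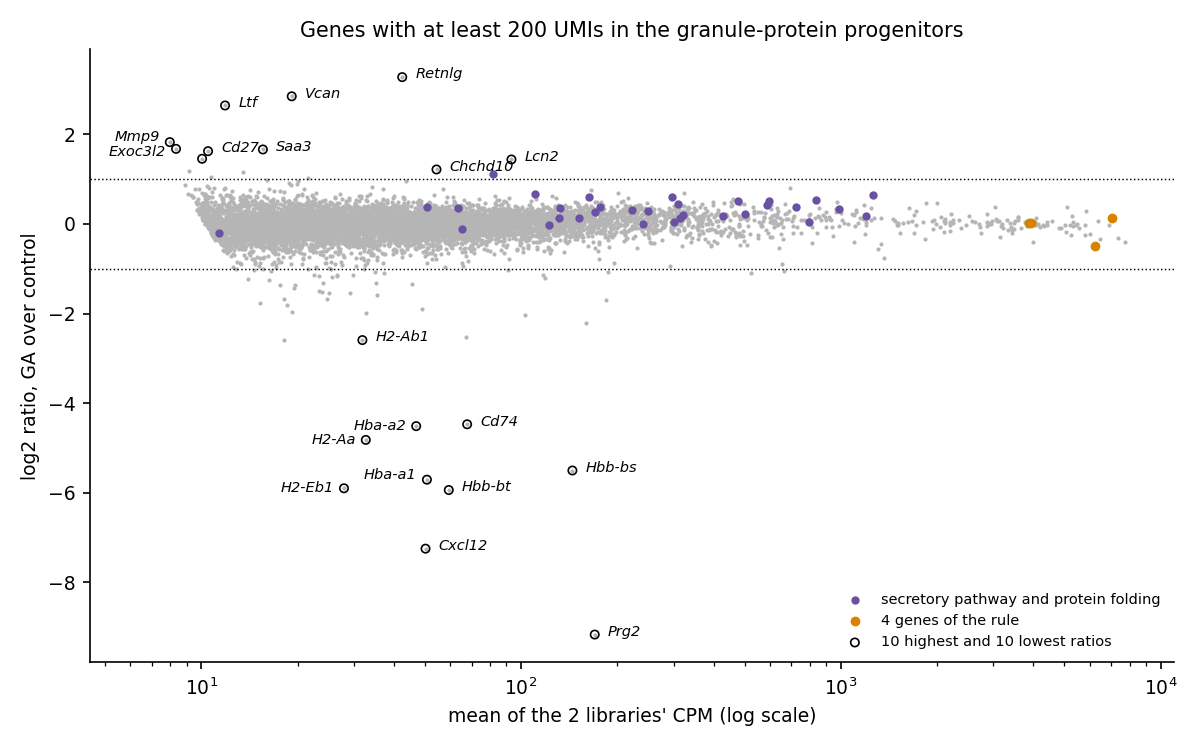
Points are the 7778 genes with at least 200 UMIs, placed by their mean CPM over the 2 libraries (log scale) and their log2 ratio of GA over control, and dotted lines mark a fold of 2. Purple points are genes of the secretory pathway and protein folding, and orange points the 4 genes of the rule. The circled genes are the 10 highest, led by Retnlg at 3.28, and the 10 lowest, led by Prg2 at -9.16, and 1 of them carries no name.

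Of 32 measured genes of the secretory pathway and protein folding 29 were above 0, with a median log2 ratio of 0.33. Over the 12050 genes the median was -0.02 and 47.9% were above 0. The counts above 0 in the lists that follow stand beside the same 47.9%. One of them, Creld2, a chaperone of the endoplasmic reticulum stress response, passed a fold of 2, at 112 and 51.9 CPM (log2 ratio 1.11, interval 0.90 to 1.31). It was found in 274 of 297 GA members and 82 of 114 control members. At 5000 UMIs per cell its shares were 40.7% and 24.6%, and its log2 ratios in the 3 ranges were 1.28, 1.13 and 0.83. Calr (calreticulin, a calcium-binding chaperone that helps myeloperoxidase fold) was at 1542 and 983 CPM, with medians over cells of 1408 and 850 CPM. Pdia4, Sdf2l1, Dnajb11, Hsp90b1 and Pdia6, which fold proteins or form disulfide bonds in the endoplasmic reticulum, had log2 ratios from 0.51 to 0.68. Hspa5 (BiP), the main chaperone of that compartment, was at 820 and 627 CPM (0.39). The 3 genes of the list below 0 were Xbp1 (-0.02), Herpud1 (-0.11) and Ddit3 (-0.21), which belong to the endoplasmic reticulum stress response, and Atf4, a further factor of that response, was at 0.35. The median of the list was 0.30, 0.31 and 0.36 in the neutrophil, monocyte and early or basophil ranges. It was 0.41 in the dividing specific-granule cells, 0.24 in the Ly6c2 monocytes, 0.15 in the Kit-positive cells and -0.26 over all cells that were not members, where the median over all genes was -0.14. The list's summed level was 13523 and 10633 CPM in the members and 4256 and 3111 CPM in the dividing specific-granule cells.

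For ribosome biogenesis 29 of 30 genes were above 0, with a median of 0.19 and Bop1, a factor of the large ribosomal subunit, highest at 0.51. Its median was 0.17 and 0.35 in the monocyte and early or basophil ranges and -0.067 in the neutrophil range. For nuclear genes of oxidative phosphorylation 30 of 32 were above 0, with a median of 0.21. Of 15 glycolysis genes 11 were above 0, with a median of 0.23, and the lactate exporter Slc16a3 (0.59) and lactate dehydrogenase Ldha (0.56) were highest. No gene of these 3 lists passed a fold of 2. The median over heme synthesis and iron genes was 0.15, with ferritin subunits Fth1 and Ftl1 at 0.20 and 0.21, and over the 18 immediate early genes, of which 16 were measured, it was 0.06, with Jun at -0.87. The median of the immediate early list was below 0 in each range, at -0.42, -0.031 and -0.14. That of the heme and iron list was -0.13 with members on the neutrophil side only. A member was on the monocyte side when its UMIs of the monocyte genes plus Ly6c2 exceeded those of the neutrophil genes. The other members made up the neutrophil side. That side can hold cells of the early or basophil range and lack neutrophil-range cells rich in Ly6c2, so it is not the neutrophil range.

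Proteins of the azurophil granule and lysosome outside the rule had 5 of 17 measured genes above 0 and a median of -0.19, which was -0.12 in the neutrophil range, 0.0045 in the monocyte range, -0.085 in the early or basophil range and -0.45 with members on the neutrophil side only. Ctsb (cathepsin B) was at 139 and 210 CPM (-0.60), Lyz2 (lysozyme) at 1059 and 1555 CPM (-0.55) and Cd63, a membrane protein of azurophil granules, at 327 and 458 CPM (-0.48). Ctsc, the protease that activates elastase, proteinase 3 and cathepsin G, went the other way, at 339 and 268 CPM (0.34). Of the NADPH oxidase subunits 7 of 8 were below 0, with a median of -0.18, which was -0.059, 0.013 and -0.42 in the neutrophil, monocyte and early or basophil ranges, and Cybb, its catalytic subunit, was at 171 CPM in both libraries.

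The specific and gelatinase granule list had a median of 0.45, with 6 genes higher and 1 lower by a fold of 2 among 19 measured, but its members differed in direction. The list includes Camp, Ngp and Ltf, which the rule limited, and Ltf is 1 of the 6. The median and the count thus draw partly on values the rule used. With members on the neutrophil side only the median was -0.26, and in the neutrophil range it was 0.20. Retnlg, Ltf, Mmp9 and Lcn2 are given above. Mmp8 (1.04) and Padi4 (1.26) were also past a fold of 2, on 30 and 13 control UMIs. Fcnb (ficolin B, made at the promyelocyte and myelocyte stages) was lower, at 121 CPM in GA and 253 CPM in control (-1.06, interval -1.17 to -0.95), and at 345 and 637 CPM in the neutrophil range. Fcnb was found at 5000 UMIs per cell in 27.9% of GA members and 42.1% of control members, and in 0 Kit-positive and 0 Ighd-expressing B cells of both libraries, with upper limits of 2.46 to 5.28%. Chil3 was at 400 and 247 CPM (0.69), and Camp at 135 and 165 CPM (-0.30). In all other cells the list's median was 1.59.

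Of 28 transcription factors of the granulocyte and monocyte lines, 10 were above and 18 below 0, with a median of -0.11, which was -0.32, -0.0091 and -0.076 in the neutrophil, monocyte and early or basophil ranges. Spi1 (PU.1) was at 318 and 313 CPM, Cebpa at 51.3 and 62.0 CPM, Cebpe at 100 and 115 CPM and Gfi1 at 24.3 and 30.9 CPM, all within 0.35 log2 units of 0. Irf8 was at 188 and 273 CPM (-0.54), and at 346 and 528 CPM within the monocyte range. Runx1, a factor of blood stem cells and progenitors, was at 329 and 455 CPM (-0.47) and was lower in all 3 ranges. Gata2 (-1.99), which basophils and mast cells need, was at 56.9 and 352 CPM in the early or basophil range. Hoxa9 (1.67) and Hoxa7 (1.94), homeobox factors of early progenitors, had 147 and 164 UMIs in GA and 13 and 12 in control, too few for the list of 7778. Among 14 measured growth factor receptors none passed a fold of 2, with a median of -0.11 that was 0.077 in the early or basophil range. Csf3r, the receptor for granulocyte colony-stimulating factor, had 841 and 214 UMIs (0.14), and Csf1r at 43.5 and 61.5 CPM (-0.50). Of 17 genes of marrow retention and migration 12 were below 0, with a median of -0.20 that was -0.042 without the highest doublet scores, -0.058 with cells weighted equally and -0.012 in the monocyte range. Among the genes below 0 was Cxcr4, the receptor for Cxcl12, at 51.1 and 79.3 CPM (-0.63). Cxcr2, the receptor that draws neutrophils out of the marrow, was at 7.50 and 3.04 CPM from 114 and 13 UMIs (1.30). In this list 3 genes, Cxcr2, Fpr1 (1.39) and Fpr2 (2.30), were higher by a fold of 2, and 1, Cxcl12, was lower. Over all cells that were not members the list's median was 0.76. The part of free message in the 3 higher ratios was not tested.

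Of 20 measured interferon response genes 4 were above 0 and 5 were lower in GA by a fold of 2, with a median of -0.39. Irf7, which amplifies type I interferon, had 26 and 34 UMIs (-2.22, interval -3.01 to -1.44), Isg15 55 and 50 UMIs (-1.69) and Usp18 12 and 13 UMIs (-1.95). Rsad2 (-1.18) rested on 2 control cells. Ifitm3, a membrane protein that hinders virus entry, was at 243 and 311 CPM (-0.35), while Ifitm1 (0.63) and Ifitm6 (0.55) were higher in GA. In the early or basophil range Ifitm1 went the other way, at 406 CPM in GA and 532 CPM in control. The median of the list was -0.31 in the neutrophil range and -0.51 in the monocyte range. It was 0.25 in the early or basophil range, and 0.65 over all cells that were not members. Of 12 heat shock genes 5 were above 0, with a median of -0.31, which was 0.062 without the highest doublet scores, and a summed level of 8007 CPM in GA and 7282 CPM in control. The 3 lower by a fold of 2 were Hspa1a (-1.71), Hspa1b (-2.21) and Hspb1 (-2.81). Hspa1a had a UMI at 5000 UMIs per cell in 9.66% of GA members and 26.3% of control members, against 8.54% and 8.82% of Ighd-expressing B cells. Hspd1 (0.50) and Hspe1 (0.43), chaperones of the mitochondrion, were higher in GA. Of 17 survival and death genes Bcl2a1b (-1.41) alone passed a fold of 2. Of 13 acute-phase and keratinocyte genes, a list chosen because they were higher in GA in other cells of these libraries, 7 were measured, 6 were above 0 and the median was 0.45, with Lcn2 and Saa3 past a fold of 2.

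**Figure D5:**
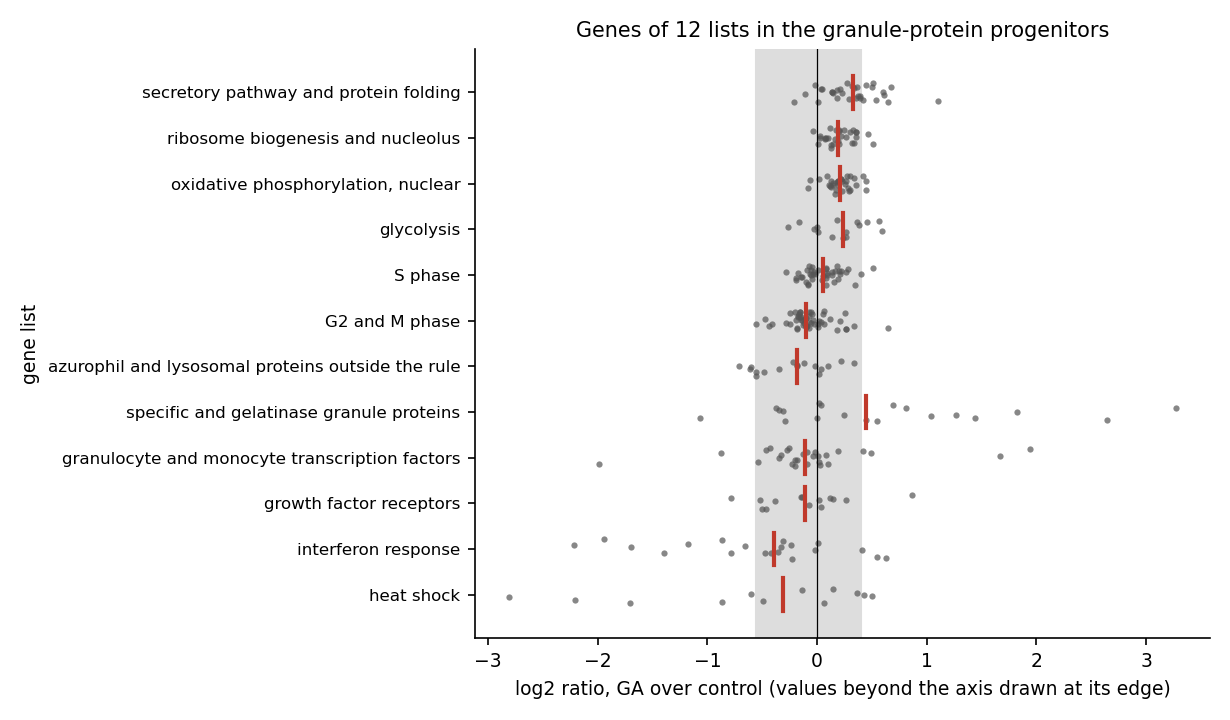
Points are the measured genes of 12 lists, placed by their log2 ratio of GA over control in the members, red bars are list medians, and the grey band runs from the 10th to the 90th percentile of the 12050 genes (-0.55 to 0.40), a spread of single genes to read the points against and not the medians. The points of the secretory list lie from -0.21 to 1.11 and those of the interferon list from -2.22 to 0.63.

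Sort1, the sorting receptor sortilin and the most abundant of the neurotrophin and Hedgehog genes listed, was at 47.0 and 69.2 CPM (-0.56, interval -0.75 to -0.36). Ngfr, the p75 neurotrophin receptor, had 2 UMIs in GA and 0 in control. Smo, the signal transducer of the Hedgehog pathway, was at 7.83 and 9.59 CPM, the pathway's receptor Ptch1 at 2.76 and 5.61 CPM, and Gli1, a target of the pathway, had 0 and 1 UMIs. Of the 11 neurotrophin and Hedgehog genes listed, 3 had at least 20 UMIs, and all 3 were below 0 (median -0.56).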

How the data were processed

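Single-cell RNA sequencing was done on 2 libraries of calvarial defect cells, 1 from GA mice and 1 from control mice, each pooled from 5 mice. The authors deposited counts of UMIs for 32285 genes per barcode, not normalized. Reads had been aligned to mm10 with Cell Ranger (7.0.1 per the file headers, another version in the study's methods). The GA matrix held 9322 barcodes and 182949385 UMIs and the control matrix 8718 barcodes and 214993030 UMIs.

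Cells were kept within the study's limits (500–140000 UMIs, 200–9500 genes, at most 15% mitochondrial UMIs). Genes sharing a symbol were summed. UMIs were summed over a class and divided by its total, so CPM weights deep cells more. Shares have exact Clopper-Pearson intervals at 95%, ratios of shares log-normal intervals, and log2 ratios exact conditional binomial intervals. The study's pseudobulk test needs replicates and was not run. Named genes were the rule's genes, Ms4a3, genes of the fixed lists, the 10 highest and 10 lowest ratios and the 15 leading genes. Some of these are not reported here. The members, marker lists and 20 gene lists were chosen with earlier results of these data known. The study removed doublets, and whether that preceded deposit is not given in the sources used here; doublets were scored here from simulated pairs of cells and kept. The alternatives concern thresholds, doublets, scaling, weighting, gene filters and thinning. The steps were tested on simulated data. Work was done in Python 3.11.15 with NumPy 2.4.6, SciPy 1.17.1 and pandas 2.3.3.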

Additional observations from a re-analysis of the deposited data

How the results depend on the processing

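The ratio of the members' share stayed between 2.26 and 2.50 under all 8 alternatives, of which 1 was added after seeing the data. Removing the highest doublet scores gave 2.50. Genes higher in GA by a fold of 2 numbered 15 of 7778 (0.193%), but 26 of 7778 with cells weighted equally. Among genes with at least 50 UMIs they numbered 97 of 10448. Without the 5% of cells with most UMIs of each gene they numbered 28 of 7771. In the neutrophil, monocyte and early or basophil ranges they numbered 12 of 3611 (0.332%), 19 of 5928 (0.321%) and 31 of 3246 (0.955%). Genes lower numbered 55 of 7778 (0.707%), but 24 of 7635 without high doublet scores and 203 of 10448 among genes with at least 50 UMIs. In the neutrophil, monocyte and early or basophil ranges genes lower numbered 20 of 3611 (0.554%), 20 of 5928 (0.337%) and 65 of 3246 (2.00%). With members on the neutrophil side only, the median log2 ratio was 0.48 for the secretory list, 0.43 for ribosome biogenesis and -0.13 for heat shock, and it was -0.26 for specific granule proteins, of the opposite sign to the 0.45 over all members. In the neutrophil range it was -0.067 for ribosome biogenesis and -0.065 for heat shock. In the early or basophil range it was 0.18 for G2 and M phase, 0.25 for the interferon list and -0.22 for heat shock. Heat shock (-0.31 over all members) also went to -0.12 with cells weighted equally and to 0.062 without high doublet scores. Among single genes, signs changed for Exoc3l2 (-0.71 without the 5% of cells with most of its UMIs), Prg2 (1.24) and Hbb-bt (0.61) without high doublet scores, and Hba-a2 (1.63) with cells weighted equally. The dividing share was 94.9% and 96.5% without thinning and 46.4% and 51.8% at 2000 UMIs. By the list with Ly6c2, 68.4% and 72.8% of members were on the monocyte side without thinning and 63.1% and 70.2% at 5000 UMIs per cell, and by the 3 ranges, unthinned, 42.8% and 42.1%. Where a value moved, the cause was not tested, except where the alternative itself used fewer cells or more genes. Low counts set the limit for genes under 200 UMIs. Leaving out a replicate could not be done, and no paired analysis was possible because each condition has 1 library.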

Other observations

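Genes that set neither the members nor the ranges also separated the ranges, described here by the fold over the other members with no test, since the ranges were cut from the same cells. In the neutrophil range Vcam1, an adhesion molecule better known from stroma and endothelium, was at 312 CPM in GA and 385 CPM in control, 39.8-fold and 17.1-fold above the other members. Pglyrp1, a peptidoglycan-binding granule protein, was 10.8-fold and 11.1-fold above them, and G0s2, an inhibitor of triglyceride lipase, stood at 274 and 327 CPM. In the monocyte range Nrg1 (neuregulin 1, a ligand of ErbB receptors) was at 325 and 306 CPM, 8.43-fold and 17.4-fold above the other members. The phospholipase Plcb1 was at 252 and 312 CPM in that range, and the collagen-binding integrin subunit Itga1 at 150 and 110 CPM. In the early or basophil range Ikzf2 (Helios, a zinc finger factor) was at 147 and 356 CPM. The chemokine Ccl4 was at 217 and 568 CPM in that range, and both genes were higher in control. Basophil-gene cells were 11 of 64 cells of the range in GA and 10 of 20 in control. Their part in these levels was not tested. Aff3 was at 246 and 230 CPM.

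Cells at the edges of the rule differed by edge. Members with 0.3 to 0.35% azurophil UMIs had F13a1 at 1347 CPM in GA and 657 CPM in control, and Ms4a3 at 32.5 and 5.72 CPM, and cells just outside had F13a1 at 642 and 380 CPM. At the specific granule edge Ms4a3 was at 1814 and 1810 CPM inside and 1759 and 2097 CPM outside, with Cebpe at 452 and 417 CPM inside and 477 and 408 CPM outside. The azurophil edge thus lay among cells with monocyte genes and the specific granule edge among cells with neutrophil genes.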
